A study of Homo sapiens with 15 samples.

Results

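The bromodomain inhibitor GNE-781 and the degrader dCBP-1 were compared at 1 dose and 1 time in MM.1S, an established human multiple myeloma cell line. The comparison used 6 of the 15 RNA libraries of the study, 3 from cells given 100 nM GNE-781 and 3 from cells given 100 nM dCBP-1, all for 6 h. The other 9 libraries were 3 from the vehicle DMSO, 3 from 100 nM A-485, and 3 from A-485 and GNE-781 together at 100 nM. They helped to estimate the spread between libraries and are given as reference levels. All groups were the same line, so the results describe 1 cell line, and the labels do not say that the replicates were separate cultures. The p-values then measure only the spread between these libraries, which may be technical. For the combination, 2 libraries carry a treatment label with another compound number (GNE-782 and GNE-783) beside a title that says GNE-781, and they were kept as titled.

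CBP (gene CREBBP) and p300 (EP300) are paralogous coactivators. Transcription factors recruit them to enhancers and promoters, where their acetyltransferase domain acetylates histones, among them histone H3 lysine 27, and their bromodomain binds acetylated lysine. A-485 blocks the acetyltransferase active site, and GNE-781 occupies the bromodomain pocket. dCBP-1 is a heterobifunctional molecule in which a ligand much like GNE-781 for the bromodomain is linked to a ligand of cereblon, the substrate receptor of an E3 ubiquitin ligase, so that CBP and p300 are marked for destruction by the proteasome. The compared compounds thus share the kind of bromodomain ligand, and differ in the linker and cereblon ligand of dCBP-1. No group received a cereblon ligand alone, and CBP and p300 protein were not measured, so loss of the proteins and effects of the cereblon ligand cannot be told apart. Myeloma cells are malignant plasma cells that depend on IRF4 and MYC, and MM.1S carries a translocation that places MAF beside an immunoglobulin heavy chain enhancer.

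RNA was read by QuantSeq, which sequences the 3′ end of each transcript, and the values are the authors' normalized read counts. The 3 GNE-781 libraries held 13163751 to 17208967 reads and the 3 dCBP-1 libraries 13103114 to 18078838. Plasma cell markers were high and those of other lineages were low, as the label of a plasma cell line would have it. The summed level of 9 plasma cell markers lay between 38520 and 42980 with GNE-781 and between 25720 and 27240 with dCBP-1, against 65600 to 68960 with DMSO. Summed markers of B, T, NK, myeloid, stromal, endothelial and epithelial cells did not pass 34.4 in any of these 6 libraries, and CD3D, NKG7, CSF1R, S100A8, HBA2 and KRT19 had no read in any of the 15. The summed erythroid markers, nearly all HBB, lay between 58.0 and 72.6 with GNE-781 and between 26.7 and 37.9 with dCBP-1. Their part in the results was not tested. In bulk RNA, fewer cells of a type and less RNA per cell cannot be told apart. Library 3 of dCBP-1 stood apart from the other two: the chi-square per degree of freedom was 28.0 against library 1 and 24.5 against library 2, and 5.61 between libraries 1 and 2. Among the GNE-781 libraries this measure lay between 10.8 and 14.6. The deviations of dCBP-1 library 3 and GNE-781 library 1 from their group means ran together over 8052 genes (r = 0.57). The main counts below are therefore also given without both of them, here called the reduced set.

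Many more transcripts were lower than higher with dCBP-1 relative to GNE-781. Of 16104 genes tested, 1500 (9.31%) passed an adjusted p of 0.05 (limma, Benjamini-Hochberg adjustment), 1148 of them lower (7.13%) and 352 higher (2.19%). Fold changes here are on the log2(value + 1) scale, and a difference is always dCBP-1 minus GNE-781 unless another is named. Large differences were nearly all falls. A fall of at least 2 fold was called for 481 genes (2.99%) and a rise of that size for 58 (0.36%), and at 8 fold the counts were 32 falls and 1 rise. The median difference over all genes tested was -0.01. The 3 dCBP-1 libraries all lay below the 3 GNE-781 libraries for 2727 genes (16.9%) and above them for 2429 (15.1%), so that falls outnumbered rises less by this count than by size. Such a lack of overlap was a condition for naming the 12 largest rises and the 12 largest falls, so for them it is no result. Those falls were MYC, TRIB1, DUSP5, RND3, CYP26A1, RUNX2, TENT5C, DUSP4, DEPTOR, MAF, CABLES1 and RGS1. In the reduced set there were 763 falls and 81 rises. The number of rises also moved with the scaling: TMM scaling gave 721 rises and 1408 falls, median-ratio scaling 704 and 1414, quantile normalization 1017 and 1327, edgeR on the recovered reads 787 and 1371, and DESeq2 1007 and 1559. The fit of only the 2 groups compared gave 902 rises and 1494 falls. Under the alternatives tried, falls of at least 2 fold numbered between 426 and 509 and rises of that size between 30, in the reduced set, and 136, in the fit of only the groups compared. Quantile normalization gave 126 such rises.

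**Figure D1:**
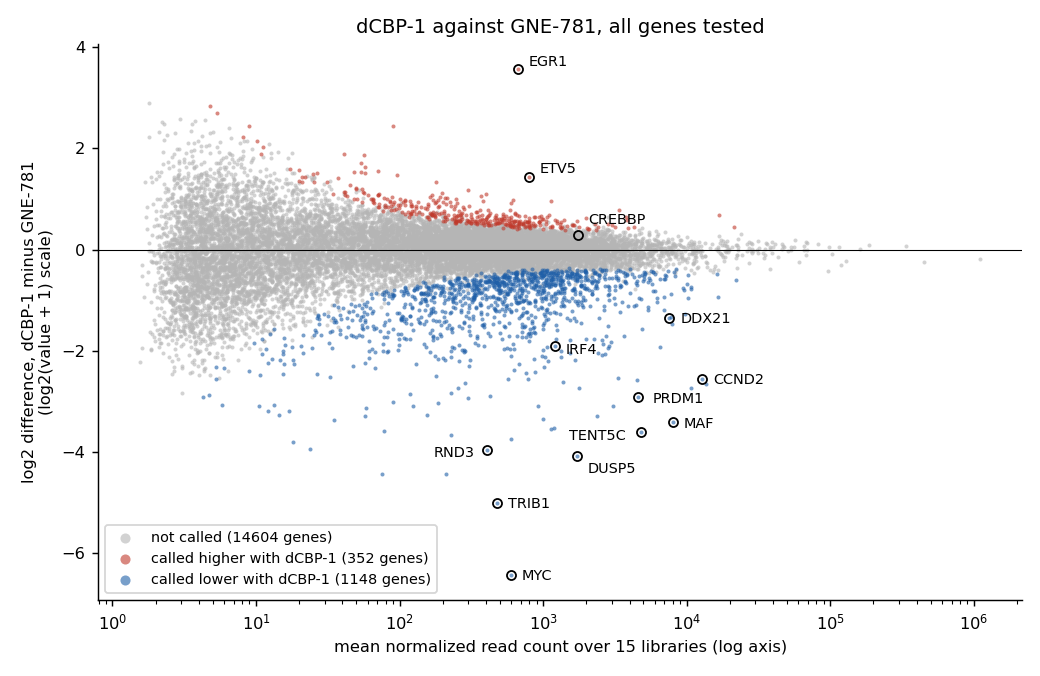
Difference between dCBP-1 and GNE-781 (log2(value + 1) scale, vertical axis) against the mean normalized read count over 15 libraries (log axis), 1 point per gene tested. The 1148 genes called lower reach -6.42 at MYC, while among the 352 called higher EGR1 stands alone at 3.56.

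Transcription factors of plasma cells and myeloma were lower with dCBP-1 as a list. Of 29 tested, 21 fell (72.4%, against 7.13% of all genes), 0 rose and 8 were not called, with a median difference of -1.33. In the reduced set 17 fell. The list had a median of -0.58 for GNE-781 minus DMSO and of -1.84 for dCBP-1 minus DMSO. Those comparisons share the DMSO libraries, and their values are set side by side only as a description.

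MYC encodes the transcription factor that drives growth and ribosome production in myeloma. Its normalized read count was 334, 433 and 533 in the GNE-781 libraries and 7.45, 5.65 and 1.19 in the dCBP-1 libraries, which came from 8, 7 and 1 reads. DMSO libraries held 1221, 1709 and 1413. Every dCBP-1 library was thus far below every GNE-781 library, and the GNE-781 libraries were themselves below those of DMSO. The difference was -6.42 ± 0.33 (SE, n = 3 per group, adjusted p = 4.49e-15, limma), or 85.9-fold lower. At so few reads it depended on the setting and ranged from -6.81 to -5.53. MYC was at 833 ± 254 with A-485 and at 268 ± 129 with the combination (SD, n = 3).

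IRF4, the lineage factor on which myeloma cells depend, was at 691, 963 and 946 with GNE-781 and at 284, 243 and 170 with dCBP-1. DMSO libraries held 2211, 2318 and 2476. The groups did not overlap. The difference was -1.91 ± 0.19 (SE, adjusted p = 1.21e-08, limma), beside -1.44 for GNE-781 minus DMSO. PRDM1, which encodes the plasma cell regulator BLIMP1, was even among the GNE-781 libraries at 3728, 3749 and 3593, and stood at 578, 469 and 428 with dCBP-1. It fell by 2.92 ± 0.13 (SE, adjusted p = 2.74e-16, limma). KLF13, a Krüppel-like factor, stood at 2954 ± 384 with GNE-781 and 344 ± 45.7 with dCBP-1 (SD, n = 3), a difference of -3.10. MEF2C differed by -1.33.

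MAF encodes the transcription factor that the translocation places under the immunoglobulin enhancer. Its value was 6262, 6753 and 7482 with GNE-781 and 694, 751 and 502 with dCBP-1, against 15300, 18020 and 15860 with DMSO. The levels of the 3 groups did not overlap. It fell by 3.41 ± 0.14 (SE, adjusted p = 4.98e-17, limma), or 10.6 fold, from a level that already differed from DMSO by -1.26. Of 6 genes listed as MAF targets, 4 fell (66.7%, against 7.13% of all genes), with a median difference of -2.40, and 4 in the reduced set. DEPTOR, an mTOR-binding protein, was at 1354, 1440 and 1267 with GNE-781 and at 117, 92.1 and 148 with dCBP-1 (-3.52 ± 0.17, SE). CCND2, cyclin D2, was at 16260, 14600 and 13920 and at 2301, 2320 and 3060 (-2.55 ± 0.15, SE). In both, every dCBP-1 library was under every GNE-781 library, which for DEPTOR, as for MAF, was a condition of the naming rule. The chemokine receptor CCR1 differed by -2.58 and the kinase NUAK1 by -1.63. ITGB7, integrin beta 7, was not called (-0.23, 95% interval -0.63 to 0.16, adjusted p = 0.55, limma).

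**Figure D2:**
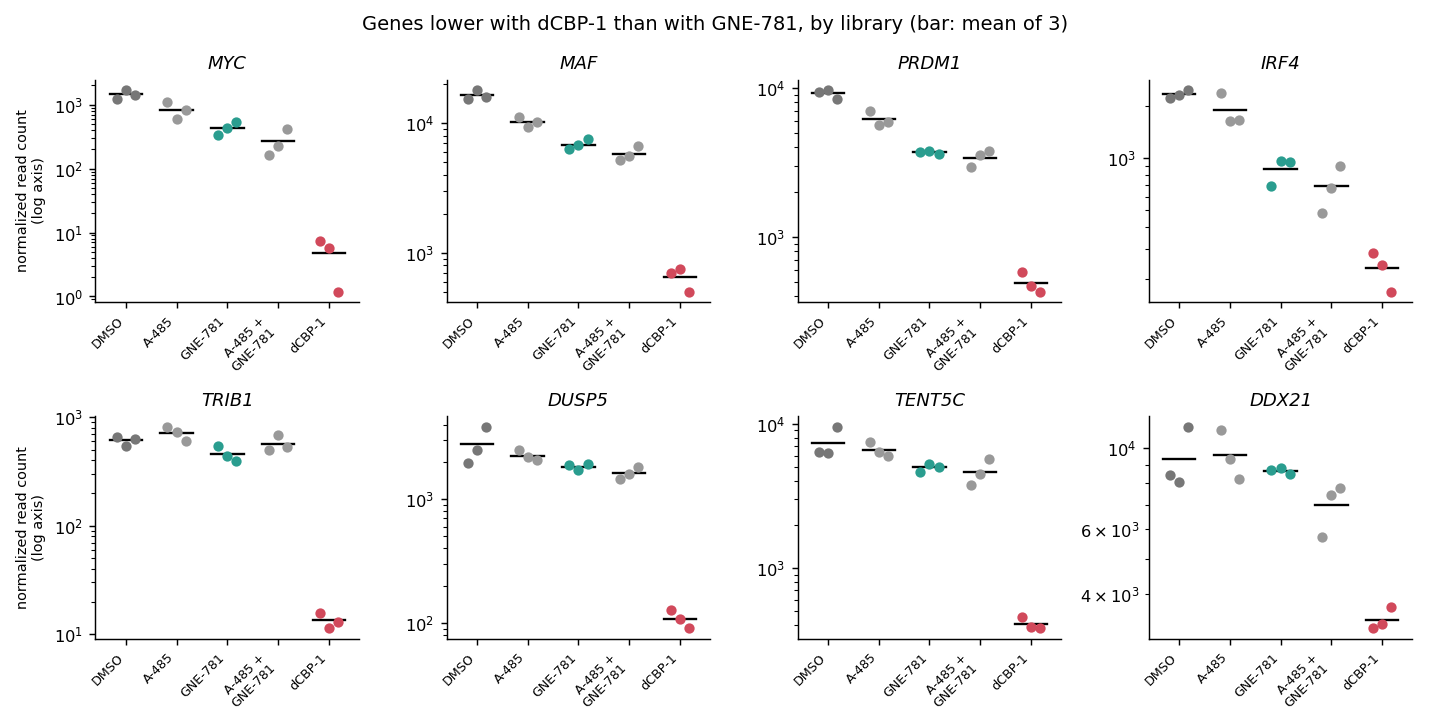
Normalized read count (log axis) of 8 genes in each library of the 5 groups, with points for libraries and a bar for the mean of 3. In each panel the 3 dCBP-1 libraries lie below the 3 GNE-781 libraries, and for TRIB1 and DDX21 the GNE-781 libraries lie near those of DMSO. For MYC, MAF, TRIB1, DUSP5 and TENT5C the lack of overlap was a condition of the rule by which they were named.

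The 250 bases before the annotated start of MAF and of CYP26A1 are shown as examples of windows with a searched motif among the 12 largest named falls. A further one, that of RUNX2, held AP-1 (TGANTCA) 243 bases before the start and is not printed. They are from RefSeq promoter windows on GRCh38.p14, whose build differs from the hg19 of the authors' data. For the 12 named falls 7 had a window, and for the 12 named rises 8 did. Capitals mark motifs, TGACGTCA (the cyclic AMP response element, CRE) in MAF and CACGTG (the E-box that MYC and related factors bind) in CYP26A1. The CRE of MAF began 45 bases before the start, and the E-boxes of CYP26A1 began 76 and 20 bases before it. MAF lies at chr16:79600738-79600987 on the minus strand, and CYP26A1 at chr10:93073225-93073474 on the plus strand.
MAF: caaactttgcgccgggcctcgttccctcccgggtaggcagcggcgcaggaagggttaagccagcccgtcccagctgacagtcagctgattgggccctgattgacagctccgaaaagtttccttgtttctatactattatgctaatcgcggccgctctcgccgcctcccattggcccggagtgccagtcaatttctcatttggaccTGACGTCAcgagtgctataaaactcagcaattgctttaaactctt
CYP26A1: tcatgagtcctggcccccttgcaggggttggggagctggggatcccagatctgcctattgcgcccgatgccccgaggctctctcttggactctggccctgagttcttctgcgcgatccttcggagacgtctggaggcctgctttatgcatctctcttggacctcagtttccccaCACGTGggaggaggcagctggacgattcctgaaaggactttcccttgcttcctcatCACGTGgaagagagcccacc
Over the whole window of 300 bases, both strands searched, the CRE occurred in 1.98% of 27305 promoters and in 3.19% of the 11128 of tested genes, the E-box in 7.43% and 9.98%, and AP-1 in 7.76% and 4.72%. Among the 339 genes with a window that fell by at least 2 fold, 3.24% held the CRE, 15.3% the E-box and 5.31% AP-1. These are counts of letters, with no test. CYP26A1 encodes a cytochrome P450 that breaks down retinoic acid. It was at 343, 483 and 556 with GNE-781 and at 35.4, 46.9 and 21.3 with dCBP-1, with no overlap (-3.74 ± 0.29, SE, adjusted p = 3.31e-11, limma). RARA, a retinoic acid receptor, fell as well, by 2.39. CYP26A1 and RARA were the only calls among 7 retinoic acid genes tested (28.6% lower, against 7.13% of all genes), and 0 rose. The other 5 were not called, which does not show that they were unchanged. The interval of RARG lay below 0 (-1.42 to -0.20), that of RXRB above 0 (0.05 to 0.67), and that of DHRS3 reached from -0.57 to 3.53. RXRA alone had an interval within -0.5 to 0.5.

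Some genes stood near their DMSO level with GNE-781 and far below it with dCBP-1. TRIB1, a pseudokinase that brings substrates to the COP1 ubiquitin ligase, was at 542, 435 and 399 with GNE-781 and at 15.8, 11.3 and 13.0 with dCBP-1. DMSO libraries held 664, 545 and 637, and all 3 GNE-781 libraries lay below the lowest of these. The difference was -5.00 ± 0.18 (SE, adjusted p = 2.35e-18, limma), while GNE-781 minus DMSO was -0.43 (adjusted p = 0.10, limma). RND3, an atypical small GTPase that lowers actomyosin contraction, was at 555, 520 and 594 and at 43.8, 28.3 and 34.4. Its difference was -3.95 ± 0.17 (SE), beside -0.28 for GNE-781 minus DMSO (adjusted p = 0.28, limma). RGS1, which speeds GTP hydrolysis by G protein alpha subunits, was at 2434, 2589 and 2536 and at 285, 266 and 227. Its difference was -3.28 ± 0.18 (SE), beside -0.31 (adjusted p = 0.25, limma). In all 3 genes the dCBP-1 and GNE-781 libraries were widely apart, and a p above the threshold does not show that GNE-781 left them as in DMSO.

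Genes of ERK signalling feedback moved in both directions. Of 19 tested, 10 fell (52.6%, against 7.13% of all genes) and 1 rose (5.26%, against 2.19%), with a median difference of -0.68, and in the reduced set 8 fell and 1 rose. The phosphatase DUSP5, which acts on nuclear ERK, was at 1879, 1713 and 1916 with GNE-781 and at 128, 107 and 90.1 with dCBP-1 (-4.09 ± 0.17, SE, adjusted p = 4.98e-17, limma). DUSP4, a related phosphatase, was at 945, 1112 and 1025 and at 86.6, 107 and 70.0 (-3.55 ± 0.17, SE). Both sets of groups were far apart. CCND1, cyclin D1, differed by -3.03. ETV5 was the member that rose and is described with the rises.

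Surface and secretory genes of plasma cells fell in 13 of 28 tested (46.4%, against 7.13% of all genes) and rose in 0, with a median difference of -0.83, and 12 fell in the reduced set. With GNE-781 minus DMSO the median was -0.73. TENT5C, a poly(A) polymerase often mutated in myeloma, was at 4653, 5266 and 5026 with GNE-781 and at 453, 387 and 381 with dCBP-1, with no overlap (-3.61 ± 0.16, SE, adjusted p = 6.62e-17, limma). TNFRSF17 encodes the receptor BCMA, a target of myeloma therapies. It was at 1634, 1294 and 1840 with GNE-781 and at 356, 445 and 324 with dCBP-1 (-2.08 ± 0.15, SE), after a difference of -1.93 between GNE-781 and DMSO. CD28, a costimulatory receptor, differed by -2.32 and TNFRSF13B, a receptor related to BCMA, by -1.77. JCHAIN, the joining chain of secreted polymeric antibodies, was not called (-0.12, 95% interval -0.42 to 0.19, adjusted p = 0.73, limma), and MZB1, an endoplasmic reticulum cochaperone, was not called either (-0.26, -0.50 to -0.03).

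RUNX2, a Runt-family factor, CABLES1, an adaptor of cyclin-dependent kinases, and the genes above complete the 12 largest named falls. RUNX2 was at 216, 271 and 256 with GNE-781 and at 21.4, 17.0 and 17.8 with dCBP-1 (-3.66 ± 0.22, SE). CABLES1 was at 1026, 1045 and 1192 and at 95.9, 109 and 114 (-3.34 ± 0.14, SE). The lack of overlap between groups in these 12 was a condition of the rule by which they were named. All 12 kept their call under every alternative tried.

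Genes of ribosome biogenesis differed in the same direction. All 33 tested had a negative difference, 25 were called lower (75.8%, against 7.13% of all genes) and 0 higher, and the median was -0.74, beside -0.21 for GNE-781 minus DMSO and -1.01 for dCBP-1 minus DMSO. In the main analysis 6 fell by at least 2 fold, and in the reduced set 23 were called lower at any size. RRS1, an assembly factor of the large subunit, was at 760, 564 and 774 with GNE-781 and at 157, 163 and 218 with dCBP-1, with no overlap (-1.96 ± 0.20, SE, adjusted p = 1.4e-08, limma). NOP16 was at 922, 1055 and 946 and at 306, 338 and 353 (-1.55 ± 0.15, SE). DDX21, a nucleolar RNA helicase, was at 8684, 8819 and 8497 and at 3229, 3324 and 3689 (-1.35 ± 0.15, SE). For these 3 genes GNE-781 minus DMSO was 0.05, -0.18 and -0.08. Other called members stood lower with GNE-781 than with DMSO. PPAN was at 890 ± 102 with DMSO and 368 ± 54.0 with GNE-781, and WDR43 at 4803 ± 516 and 3398 ± 116 (SD, n = 3). Cytosolic ribosomal proteins, the products assembled by this machinery, had 0 of 74 called, against 9.31% of all genes, with a median of 0.01. Of the 74, 57 had a 95% interval within -0.5 to 0.5 (77.0%, against 23.3% of all genes).

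Of 16 metabolic and growth genes often regulated by MYC, 6 fell (37.5%, against 7.13% of all genes) and 0 rose, with a median of -0.33, and 5 fell in the reduced set. ODC1, the rate-limiting enzyme of polyamine synthesis, was at 8346 ± 488 with GNE-781 and 4334 ± 243 with dCBP-1 (SD, n = 3), a difference of -0.94, beside -0.06 for GNE-781 minus DMSO. The transcription factor TFAP4 differed by -1.71 and the DNA repair enzyme APEX1 by -1.24. In the network of MYC partners, 3 of 12 fell (MYC, MYCL and MNT, 25.0% against 7.13% of all genes) and 1 rose (8.33%, against 2.19%). In the reduced set 3 fell and 2 rose. TMM scaling, edgeR and quantile normalization each called 4 lower and 2 higher. The gene that rose in the main analysis was MXD1, which encodes a repressor that competes with MYC for MAX. MXD1 was at 255, 258 and 301 with GNE-781 and at 513, 534 and 415 with dCBP-1 (0.84 ± 0.17, SE, adjusted p = 0.00107, limma). The groups did not overlap. The MYCL call was lost without dCBP-1 library 2 (-1.27, adjusted p = 0.067, limma). MAX was not called (-0.02).

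Survival genes split. In the BCL2 family 4 of 16 fell (25.0%, against 7.13% of all genes) and 1 rose (6.25%, against 2.19%), with a median of -0.33, and 4 fell and 0 rose in the reduced set. BCL2 was at 597, 658 and 633 with GNE-781 and at 229, 174 and 170 with dCBP-1 (-1.73 ± 0.15, SE, adjusted p = 3.68e-10, limma), and BCL2L1, which encodes BCL-XL, was at 545, 658 and 597 and at 199, 208 and 215 (-1.53 ± 0.17, SE). Both of these code for proteins that restrain apoptosis, and neither overlapped between groups. The 2 others that fell, BMF (-1.49) and BCL2L11, encode proteins that promote it. BCL2L11 was at 1951 ± 158 with GNE-781 and 981 ± 172 with dCBP-1 (SD, n = 3). MCL1, a further restraint on apoptosis, was not called (-0.38, 95% interval -0.66 to -0.09, adjusted p = 0.097, limma), and was called lower under 5 of the alternatives. Among NF-kB subunits and targets 9 of 24 fell (37.5%, against 7.13% of all genes) and 0 rose, with a median of -0.28, and 8 fell in the reduced set. They included TNFAIP3, the deubiquitinase A20 (-2.13 ± 0.15, SE), BCL3 (-1.93) and BIRC3 (-1.58).

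The unfolded protein response, prominent in antibody-secreting cells, gave 4 falls (13.3%, against 7.13% of all genes) and 2 rises (6.67%, against 2.19%) in 30 genes, with a median of -0.09, and 3 falls and 1 rise in the reduced set. HERPUD1, a component of endoplasmic reticulum degradation, was at 6933, 8112 and 8415 with GNE-781 and at 2117, 2628 and 1534 with dCBP-1 (-1.93 ± 0.17, SE, adjusted p = 1e-09, limma), with no overlap. ERN1, the stress sensor IRE1, differed by -1.81. In the MHC class II list 1 of 13 fell (7.69%, near the 7.13% of all genes), CIITA, the master regulator of these genes, at 105, 86.8 and 72.9 against 20.5, 11.3 and 5.93 (-2.85 ± 0.29, SE). The other 12 were not called, among them the class II genes HLA-DRA (-0.14) and CD74 (0.01). E2F2 was the single call among 31 genes of DNA replication (-0.83), a share of 3.23% lower, against 7.13% of all genes. Of the 31, 20 had a 95% interval within -0.5 to 0.5 (64.5%, against 23.3% of all genes). Quantile normalization called 7 of them higher and 2 lower, and TMM scaling and edgeR 2 higher and 2 lower each.

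**Figure D3:**
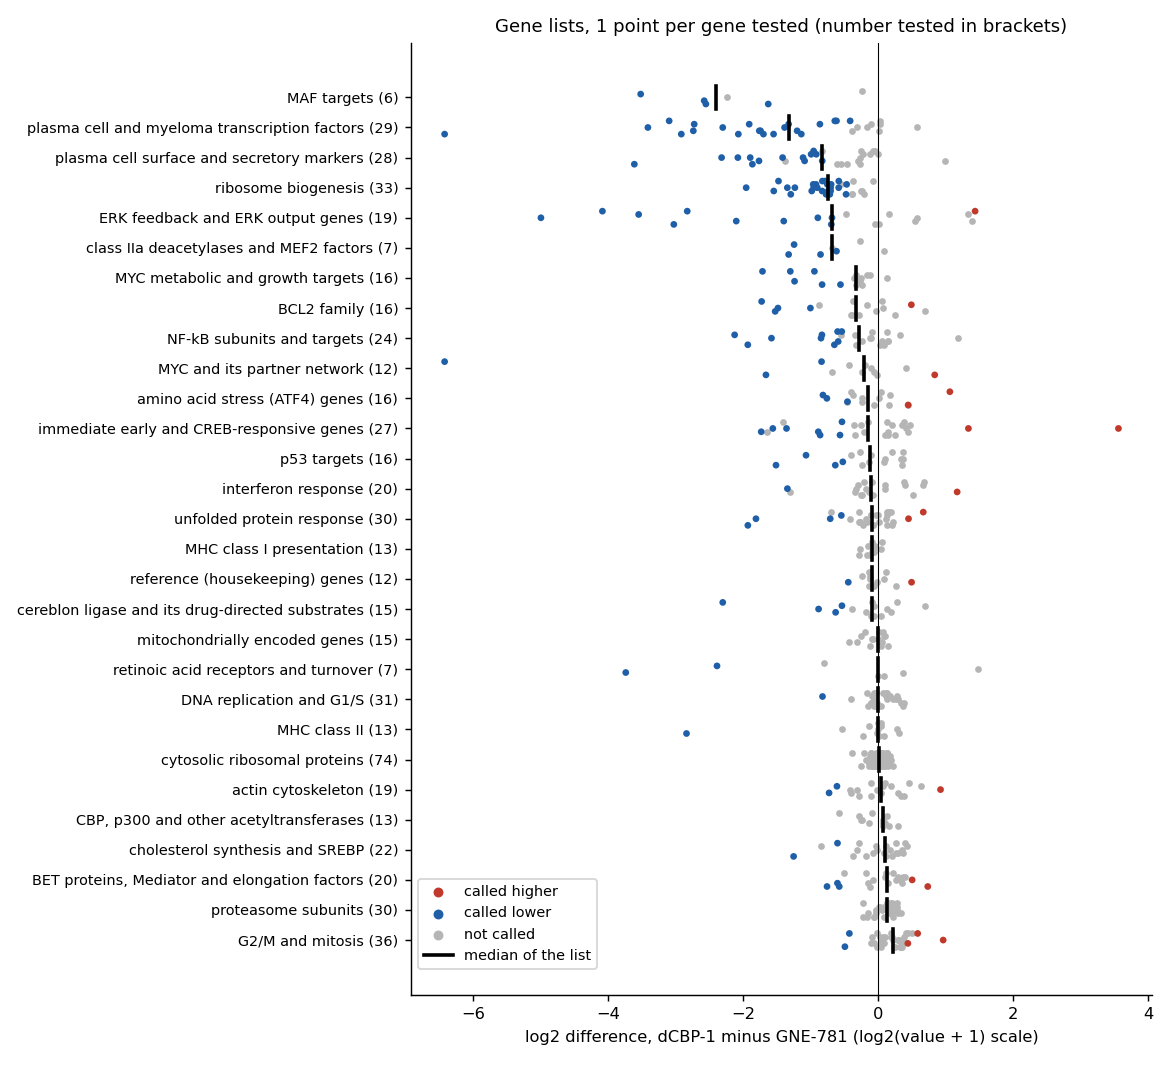
Difference between dCBP-1 and GNE-781 (log2(value + 1) scale) for each gene tested in 29 lists, ordered by median (black bar). Medians run from -2.40 for MAF targets to 0.22 for G2/M and mitosis, and large rises are single genes such as EGR1.

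The largest named rise was EGR1, an immediate early zinc finger factor induced by growth signals. It was at 254, 167 and 277 with GNE-781 and at 2662, 2610 and 2801 with dCBP-1, 11.8-fold higher, and the dCBP-1 libraries were close to each other. DMSO libraries held 32.7, 33.8 and 61.9, A-485 libraries 45.4 ± 15.7 and the combination 340 ± 69.4 (SD, n = 3). The difference was 3.56 ± 0.24 (SE, adjusted p = 2.61e-12, limma). Its upstream sequence, chr5:138465229-138465478 on the plus strand of GRCh38.p14 (RefSeq), is shown because it is the only one among the 15 windows of named genes that holds the serum response element searched for, a binding site of serum response factor (capitals). This element begins 105 bases before the start.
EGR1: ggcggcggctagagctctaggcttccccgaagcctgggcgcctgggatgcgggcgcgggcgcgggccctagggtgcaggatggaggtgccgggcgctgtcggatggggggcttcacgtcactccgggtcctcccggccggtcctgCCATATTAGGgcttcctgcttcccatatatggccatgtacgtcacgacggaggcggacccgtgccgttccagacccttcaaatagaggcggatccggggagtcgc
The same letters, on either strand of the 300-base window, occurred in 0.0366% of all promoters and in 0.0449% of those of tested genes, and in 2 of the 43 with a window that rose by at least 2 fold. Other immediate early genes did not follow EGR1 as a group: of 27 tested, 2 rose (7.41%, against 2.19% of all genes) and 7 fell (25.9%, against 7.13%), with a median of -0.15, and 2 rose and 4 fell in the reduced set. IER2, the other that rose, was at 154, 118 and 139 with GNE-781 and at 339, 379 and 319 with dCBP-1, with no overlap (1.34 ± 0.23, SE, adjusted p = 8.64e-05, limma). JUN was not called (0.14, 95% interval -0.15 to 0.42). BTG2, an antiproliferative gene, fell from 1737, 1903 and 1722 to 669, 689 and 733 (-1.36 ± 0.15, SE).

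ETV5, an ETS-family factor and output of ERK signalling, was at 653, 613 and 761 with GNE-781 and at 1852, 1819 and 1797 with dCBP-1. It was 2.71-fold higher (1.44 ± 0.16, SE, adjusted p = 4.5e-08, limma). GBP1, an interferon-inducible GTPase, was at 199, 209 and 190 and at 477, 406 and 471 (1.17 ± 0.18, SE). Its GNE-781 level was below all 3 DMSO libraries, at 231, 213 and 330, while its dCBP-1 level was above them. Of 20 interferon genes tested, GBP1 was the only call higher (5%, against 2.19% of all genes). IRF2 was the only call lower, by 1.34 (5%, against 7.13% of all genes). TMM scaling, edgeR and quantile normalization called 3 of the 20 higher each. SLC2A3, the glucose transporter GLUT3, was at 195, 199 and 181 and at 399, 380 and 470 (1.11 ± 0.20, SE), and stood lower with DMSO at 65.4, 63.3 and 108. CHAC1, an enzyme that degrades glutathione and a target of ATF4, was at 345, 280 and 328 and at 656, 675 and 653 (1.06 ± 0.15, SE). In the ATF4 list of 16 genes 2 rose (12.5%, against 2.19% of all genes) and 3 fell (18.8%, against 7.13%), so CHAC1 did not stand for a rise of the list.

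The other 7 of the 12 largest named rises were between 0.97 and 1.09. They were B4GAT1, a glycosyltransferase of dystroglycan (1.09), STRIP2 (1.04), PGM2L1, which makes glucose 1,6-bisphosphate (1.02), PPP1R3D, a glycogen-targeting subunit of protein phosphatase 1 (1.01), the kinase TTBK2 (0.99), the autophagy lipid-transfer protein ATG2A (0.98) and the ESCRT-III subunit CHMP4C (0.97). In each of the 12, the lowest dCBP-1 library was above the highest GNE-781 library, a condition of the rule by which they were named. This holds for EGR1, ETV5, GBP1, SLC2A3 and CHAC1 as well. STRIP2 lost its call in the reduced set (0.96, adjusted p = 0.072, limma).

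Genes of G2/M and mitosis had the highest median of the lists, 0.22, with 3 of 36 called higher (8.33%, against 2.19% of all genes) and 2 lower (5.56%, against 7.13%), and 2 higher and 0 lower in the reduced set. Quantile normalization called 13 higher, TMM scaling and edgeR 10 each. CDC25C, a phosphatase that activates the mitotic kinase CDK1, was at 280, 343 and 317 with GNE-781 and at 635, 603 and 591 with dCBP-1 (0.96 ± 0.15, SE, adjusted p = 2.4e-05, limma). CCNB2, cyclin B2, was at 1311, 1218 and 1434 and at 2040, 1928 and 1968 (0.59 ± 0.14, SE). Neither gene overlapped between groups. LIMA1, an actin-bundling protein, was at 605, 591 and 589 and at 1191, 1070 and 1131 (0.92 ± 0.17, SE). Among 19 cytoskeleton genes it was the only call higher (5.26%, against 2.19% of all genes). The 2 other calls of that list were falls (10.5%, against 7.13%), TPM4 (-0.73) and MYH9 (-0.61).

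**Figure D4:**
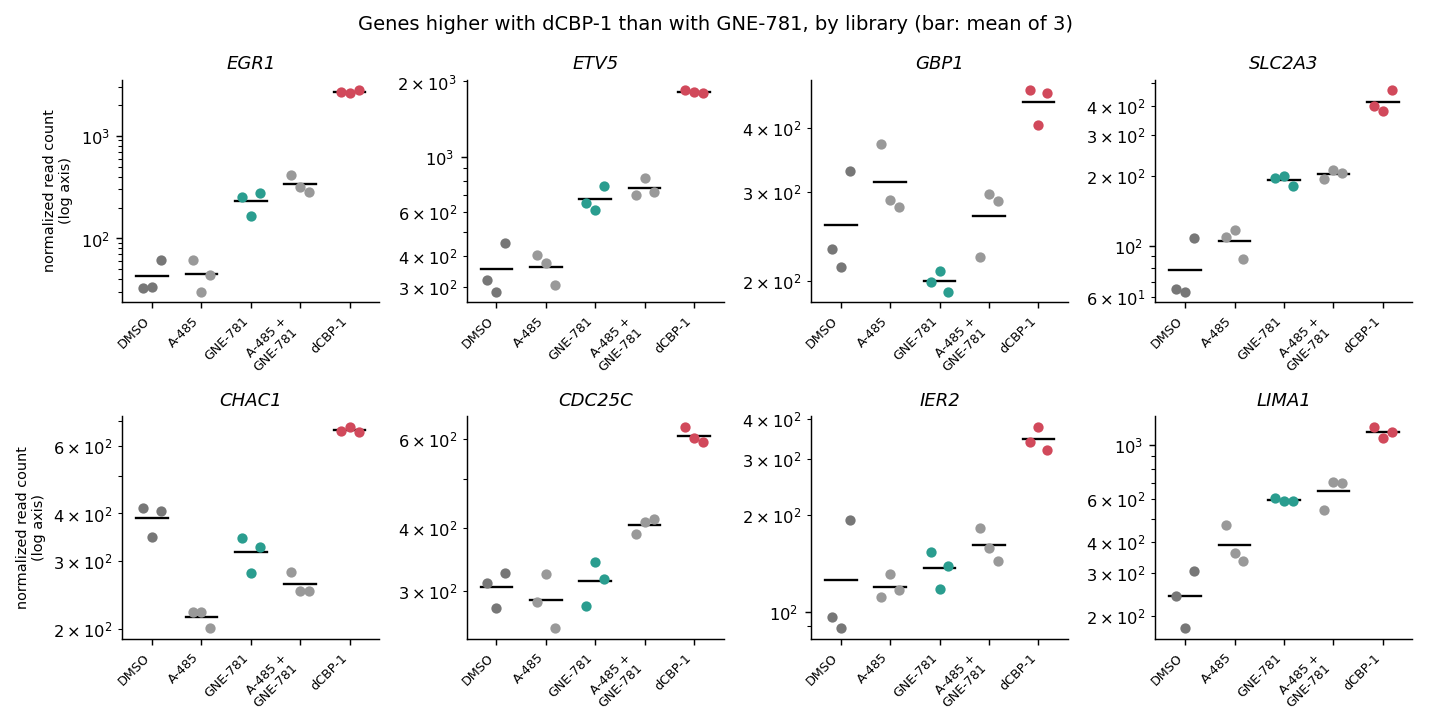
Normalized read count (log axis) of 8 genes in each library of the 5 groups, with points for libraries and a bar for the mean of 3. The 3 dCBP-1 libraries lie above the 3 GNE-781 libraries in each panel, most widely for EGR1 (2610 to 2801 against 167 to 277). For EGR1, ETV5, GBP1, SLC2A3 and CHAC1 this was a condition of the rule by which they were named.

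The transcripts of the compounds' own targets were not called. CREBBP was at 2000, 1886 and 1648 with GNE-781 and at 2204, 1989 and 2630 with dCBP-1, and the groups overlapped (0.30 ± 0.15, SE, 95% interval -0.00 to 0.59, adjusted p = 0.24, limma). Quantile normalization called it higher (0.36, adjusted p = 0.036, limma). EP300 was at 1559, 1689 and 1198 and at 1419, 1342 and 2061, also with overlap (0.10 ± 0.16, SE, -0.23 to 0.44, adjusted p = 0.79, limma). Without dCBP-1 library 3 its difference was -0.09. Among 13 acetyltransferases and coactivators 0 were called, by limma, against 9.31% of all genes. A list this short holds too few genes to set 0 calls apart from that share. Of the 13, 8 had a 95% interval within -0.5 to 0.5 (61.5%, against 23.3% of all genes). KAT2B, the acetyltransferase PCAF, had the most negative value (-0.59, -1.03 to -0.14, adjusted p = 0.091, limma), and was called lower without dCBP-1 library 1 (-0.77, adjusted p = 0.040, limma).

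For the ligase that dCBP-1 recruits, CRBN was at 436, 443 and 519 with GNE-781 and at 577, 518 and 493 with dCBP-1, with overlap (0.19 ± 0.14, SE, 95% interval -0.10 to 0.47, adjusted p = 0.50, limma). Of 15 genes for the cereblon ligase and the proteins that cereblon ligands direct to it, 4 fell (26.7%, against 7.13% of all genes), CUL4A among them with a call that ended under some alternatives. IKZF3, which encodes Aiolos, a plasma cell factor degraded by the immunomodulatory cereblon ligands, was at 316, 337 and 280 and at 56.8, 59.0 and 71.1, with no overlap (-2.30 ± 0.19, SE, adjusted p = 1.57e-10, limma). Its paralog IKZF1, Ikaros, was not called (-0.39, -0.68 to -0.10, adjusted p = 0.086, limma), with 1110, 1023 and 1098 against 845, 867 and 754. IKZF1 was called lower under TMM, median-ratio and quantile scaling, edgeR and DESeq2. The translation termination factor GSPT1 differed by -0.63 and the ubiquitin-conjugating enzyme UBE2G1 by -0.88. These are levels of RNA, and the proteins were not measured.

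**Figure D5:**
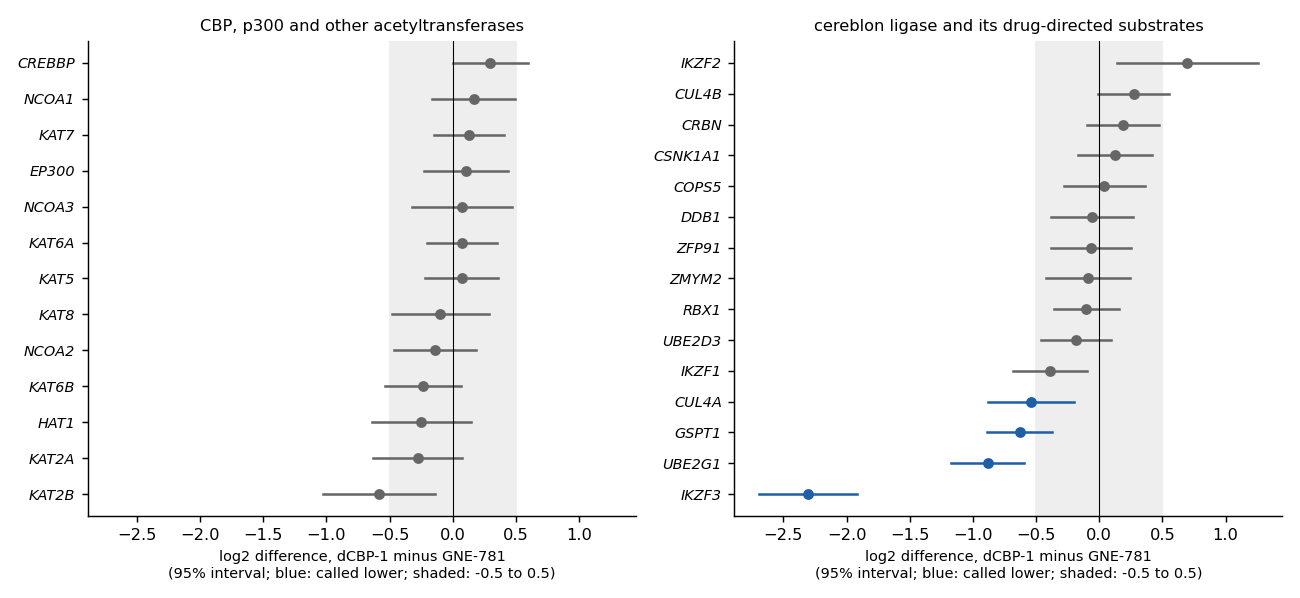
Difference between dCBP-1 and GNE-781 (log2(value + 1) scale) with its 95% interval for acetyltransferases and coactivators and for the cereblon ligase and its drug-directed substrates. The intervals of CREBBP and EP300 include 0, and IKZF3 stands at -2.30.

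The compounds gave values shown to lie close for a part of the transcriptome. For 3758 of 16104 genes (23.3%) the 95% interval lay within -0.5 to 0.5, a difference of under 1.41 fold either way. The reduced set gave 2237 such genes and the fit of only the groups compared 4858. Of the 14604 genes not called, 9032 had an interval within -1 to 1, and for 5572 (38.2%) it reached further, so that a 2-fold difference cannot be told from none at this depth. Proteasome subunits had 0 of 30 called, against 9.31% of all genes, with a median of 0.13 and 17 narrow intervals (56.7%, against 23.3%). Quantile normalization called 5 of them higher, TMM scaling 3 and edgeR 1. MHC class I genes had 0 of 13 called, with a median of -0.09 and 9 narrow intervals (69.2%). Mitochondrially encoded genes had 0 of 15 called and 6 narrow intervals (40%), and quantile normalization called 1 lower. Lists of 13 and 15 genes are too short to set 0 calls apart from the share over all genes. By the same test 2679 genes (16.6%) differed between GNE-781 and DMSO and 6092 (37.8%) between dCBP-1 and DMSO. These comparisons share the DMSO libraries, of which libraries 1 and 2 held 23.1% and 19.7% mitochondrial reads against 14.3% to 15.7% in the 6 libraries compared here.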

How the data were processed

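RNA from 15 MM.1S libraries (5 groups of 3) was measured by QuantSeq 3′ sequencing, with ERCC spike-ins added at extraction per the labels' protocols. The deposited table holds 1 signal value per gene and library, which the authors made by dividing read counts by a size factor. This is taken from the values, of which 100% were whole multiples of 1 step per library within 0.01 of a read. Reads were placed on hg19 per the submitters' processing notes. The aligner, counter, annotation and strand setting are not given in the sources used here, so reads of overlapping and antisense genes may be mixed. The table held 0 spike-in rows, and what the size factors were based on cannot be read from the values. TMM size factors relative to the deposited ones ran from 0.87 to 1.11 over the 15 libraries. In the 6 libraries compared they ran from 0.99 to 1.02. Whether the values hold a change of all RNA per cell thus cannot be told. It held values for 47459 gene IDs, and 45994 (96.9%) matched a symbol. Genes listed later than its last row, such as SPIB, were not analysed here. Some gene results are not reported here.

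A gene was tested where 3 or more libraries reached a value of 5 (16104 genes). Values were taken as log2(value + 1) and fitted in 1 model of 5 group means over 15 libraries with limma 3.58.1 (R 4.3.3), with a mean-dependent variance, two-sided tests and Benjamini-Hochberg adjustment over all genes tested. The fit was tested on simulated counts of independent libraries. Those had no library that stood apart and no deviations shared between groups, so neither feature was covered. The pseudocount understates changes of low genes. Recovered reads were also fitted with DESeq2 1.42.0 and with edgeR 4.0.16. Further alternatives were other scalings, pseudocounts, filters and left-out libraries. No covariate was used, and the replicate numbers were not found to pair the libraries.

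Named genes were the 12 largest called rises and falls without overlap between groups and with a mean no lower than the median over tested genes, leaving out unnamed, antisense and pseudogene transcripts. Up to 4 members per list with the smallest p, up to 4 uncalled members with the narrowest interval, and CREBBP, EP300, MYC, IRF4, CRBN, IKZF1 and IKZF3 were added. The genes and lists were chosen with earlier results of these data known. No list was tested.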

Additional observations from a re-analysis of the deposited data

How the results depend on the processing

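Falls were more stable than rises. The 1148 genes called lower numbered between 763 and 1559 and the 481 at least 2 fold lower between 426 and 509 under every alternative, and between 410 and 481 of the latter genes were called lower under each. The 352 genes called higher were 721 with TMM scaling, 704 with median-ratio scaling, 1017 with quantile normalization, 787 with edgeR and 1007 with DESeq2. All calls were 2344 with quantile normalization and 2566 with DESeq2. Rises of at least 2 fold, 58 in the main analysis, were 126 with quantile normalization, 93 with a pseudocount of 5, 90 with edgeR and 105 with DESeq2. Fitting only the groups compared gave 2396 calls, 902 of them rises and 136 at least 2 fold higher. Without DMSO libraries 1 and 2, 596 genes were called higher, 108 by at least 2 fold.

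Leaving out dCBP-1 library 3 and GNE-781 library 1 together, an alternative chosen after seeing the data, left 844 calls, 763 lower and 81 higher, 30 of them at least 2 fold higher, and 2237 narrow intervals in place of 3758. This alternative has fewer libraries. Leaving out 1 library at a time gave 135 (without GNE-781 library 1) to 515 rises (without DMSO library 3) and 32 to 79 rises of at least 2 fold. The lone-library exclusions gave 1033 to 1803 calls in all. Other causes of these shifts were not tested. Intervals were not computed for edgeR and DESeq2.

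Same-numbered libraries of the 2 groups had correlations of deviations of -0.40, 0.13 and -0.41, so no pairing by number was seen. No dCBP-1 library correlated best with the GNE-781 library of its own number. Libraries 1 and 2 did so with GNE-781 library 3 (0.29 and 0.34), and library 3 with GNE-781 library 1 (0.57). With 3 libraries per group these correlations cannot settle whether libraries were paired. A fit with a replicate block gave 1286 calls, 255 higher and 1031 lower. No called result changed sign, while EP300, which was not called, went from 0.10 to -0.09 without dCBP-1 library 3. Of 238 genes chosen by the naming rule, 55 had a change of call under some alternative. Calls that ended under at least 1 alternative include those of HBB, CUL4A, YWHAZ, SLC3A2, SESN1, MEF2D, HDAC4, SREBF1, AFF1, CDKN1A, PPP1R15A, BUB1B, MYCL, NUSAP1, MED12, POLR2A and STRIP2. With 3 libraries per group and 13103114 to 18078838 reads in the dCBP-1 libraries, genes with a mean level under 17.1 were called lower in 0.70% of cases, against 12.6% of genes at 688 or more.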

Other observations

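Of 494 long intergenic RNAs tested, 13 were called lower (2.63%) and 0 higher in dCBP-1 against GNE-781 (limma), and of 103 small nucleolar RNA genes 8 were called lower (7.77%) and 0 higher. Over all genes tested 7.13% were called lower, so the first share was below that background and the second near it. Among 12726 protein-coding genes 1058 were called lower (8.31%) and 345 higher (2.71%).

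No read was found in any dCBP-1 library for 39 genes tested, of which 6 were called lower, while 7.13% of all genes were. Chosen for 0 reads with dCBP-1, these genes could only be called lower. In the other direction, 8 genes had no read in any GNE-781 library. Of those 8, 1 was called higher, HSPB6, and it lost the call in the reduced set. Of the 6 called lower, ANKRD33B, FRMPD4, OSTCP8 and RNA5SP492 lost the call in the reduced set, without dCBP-1 library 3 and GNE-781 library 1. GRHL3, a Grainyhead-like factor named here after its values were seen, lost it under none of the alternatives tried. It was at 14.5 ± 2.36 with GNE-781 (SD, n = 3) and at 64.4, 46.4 and 46.1 with DMSO.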
